A study of Mus musculus with 28 samples.

Results

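The genes described are 51 transcription factors of the Pax, Gata, Lhx, Nkx, Tbx and Sox families and the sine oculis-related group Six2 to Six6. They were chosen by symbol from the 23951 gene symbols of the expression tables as developmental regulators of lineages other than the fibroblast. That description is loose for the 11 that act in limb, trunk and pharyngeal mesenchyme. All samples came from NIH/3T3 Tet-On 3G cells, immortal mouse fibroblasts of embryonic origin with a transactivator switched on by doxycycline. Polyadenylated RNA was sequenced from 3 H3.3 knockdown clones, transduced with the OFP-H3.3A and GFP-H3.3B constructs, and from 2 luciferase clones, transduced with GFP-Luciferase and OFP-Luciferase. The treatment text for these 5 clones names FLAG/HA-H3.3 fibroblasts given doxycycline, so a tagged H3.3 may be common to both groups. Chromatin immunoprecipitation with sequencing (ChIP-seq) of RBBP4 and MTA1 had 1 library per protein in knockdown cells and 1 in luciferase cells. Unmodified cells gave 1 library each for H3K4me3, H3K9ac, H3K27ac, CHD4, HDAC1, HDAC2, MBD2/3, MTA1 and RBBP4. An HA antibody gave 2 replicates of tagged H3.3 from cells transduced with the HA/FLAG-H3.3 construct and held in aphidicolin and doxycycline, and the sequential FLAG then RBBP4 ChIP used the same construct with doxycycline.

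These factors bind DNA through paired, zinc-finger, homeo, T-box or HMG domains, and each helps to set the identity of a tissue in the embryo. In cells of another lineage such genes are usually held silent, often by Polycomb repressive complex 2 (PRC2), which methylates histone H3 on lysine 27 and acts mostly at CpG-rich promoters. RBBP4 is a histone-binding subunit of PRC2 and also of NuRD, the complex that couples the remodeller CHD4 to the deacetylases HDAC1 and HDAC2 with MTA and MBD subunits. H3K4me3 marks active or poised promoters, H3K9ac and H3K27ac mark active ones, and H3.3 is the histone H3 variant laid down outside DNA replication. RBBP4 peaks alone therefore do not tell PRC2 from NuRD, and no PRC2-specific subunit or H3K27me3 library was used here.

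A gene was called silent where it had under 1 FPKM (fragments per kilobase of transcript, scaled to library size) in both luciferase clones, and expressed where it had 1 FPKM or more in both. By this rule 36 members were silent, 14 were expressed and Gata3 lay between, against 12138 silent, 11084 expressed and 729 intermediate symbols among all genes. The 14 expressed members were Sox9, Sox4, Tbx15, Tbx18, Gata2, Nkx2-5, Gata4, Tbx4, Lhx6, Six4, Six5, Lhx9, Pax9 and Tbx3. For a count by tissue each member was placed in 1 group only, although many act in several tissues. Of the 20 members grouped under neural tissue and neural crest 18 were silent, and so were all 4 of the kidney, thyroid and B-cell group. The neural group includes Nkx2-1 (silent) and Lhx9 (expressed), which are described below by other tissues too. Among 11 factors of heart, endoderm, blood and endothelium 7 were silent and 3 were expressed, and among 11 of limb, trunk and pharyngeal mesenchyme 4 were silent and 7 were expressed. The remaining 5, which act in cartilage or belong to the SoxC class, divided into 3 silent and 2 expressed.

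Promoters are shown for 4 members, 2 silent and 2 expressed, because the silent members described here were rich in CpG, as were the expressed ones. Each is the RefSeq sequence of 300 bases on GRCm38.p6, from 250 bases before the transcription start to 50 after it, read 5′ to 3′ on the gene's strand with CG dinucleotides in capitals. The silent genes are Nkx2-2, a regulator of ventral spinal cord and pancreatic islet cells (chr2:147186353-147186652, minus strand), and Sox2, a factor of pluripotent and neural stem cells (chr3:34649745-34650044, plus strand). The expressed genes are Sox4 (chr13:28953650-28953949, minus strand) and Tbx18 (chr9:87731211-87731510, minus strand).
Nkx2-2: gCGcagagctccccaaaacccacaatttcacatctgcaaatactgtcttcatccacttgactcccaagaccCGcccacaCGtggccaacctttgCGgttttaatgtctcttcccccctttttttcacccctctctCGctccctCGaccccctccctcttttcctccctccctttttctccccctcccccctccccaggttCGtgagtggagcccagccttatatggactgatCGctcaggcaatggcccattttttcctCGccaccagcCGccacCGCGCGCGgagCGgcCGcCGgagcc
Sox2: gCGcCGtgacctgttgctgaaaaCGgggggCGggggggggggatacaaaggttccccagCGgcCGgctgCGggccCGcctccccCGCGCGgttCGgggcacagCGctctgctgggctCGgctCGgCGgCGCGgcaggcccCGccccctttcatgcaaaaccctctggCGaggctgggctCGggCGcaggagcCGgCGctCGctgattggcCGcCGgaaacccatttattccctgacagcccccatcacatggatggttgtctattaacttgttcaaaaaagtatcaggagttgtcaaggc
Sox4: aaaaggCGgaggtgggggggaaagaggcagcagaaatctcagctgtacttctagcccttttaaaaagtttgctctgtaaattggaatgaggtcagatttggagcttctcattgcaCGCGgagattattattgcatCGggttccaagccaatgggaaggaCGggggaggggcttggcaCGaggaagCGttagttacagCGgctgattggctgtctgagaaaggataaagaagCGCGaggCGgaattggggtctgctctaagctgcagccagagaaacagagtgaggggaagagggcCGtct
Tbx18: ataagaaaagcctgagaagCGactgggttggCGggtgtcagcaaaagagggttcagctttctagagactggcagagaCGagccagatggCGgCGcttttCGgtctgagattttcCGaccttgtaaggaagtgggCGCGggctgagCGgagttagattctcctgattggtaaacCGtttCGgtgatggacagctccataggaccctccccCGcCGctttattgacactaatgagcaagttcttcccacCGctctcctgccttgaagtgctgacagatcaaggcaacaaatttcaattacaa

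The silent Sox2 promoter held 27 CG dinucleotides and that of Nkx2-2 held 17, against 12 in the expressed Sox4 and 15 in the expressed Tbx18. Their CpG content, observed over expected from the base composition, was 0.82 for Sox2 and 0.79 for Nkx2-2, and 0.68 for Sox4 and 0.75 for Tbx18. An entry was matched for 39 members, which left out Tbx3, Gata6, Lhx5, Tbx2, Sox9, Sox17, Gata4, Tbx5, Sox10, Sox18, Pax3 and Tbx15. Over the 28 silent members with an entry the median was 0.70, with a G+C share of 62.0%, whereas the 8045 silent genes with an entry had medians of 0.27 and 50.5%. Over 10 expressed members the medians were 0.66 and 55.3%, whereas the 8283 expressed genes had 0.78 and 61.3%. A ratio of 0.6 or more was found at 20 of 28 silent members (71.4%), against 20.3% of all silent genes, and at 6 of 10 expressed members (60.0%), against 75.7% of all expressed genes. The silent members' median thus lay nearer to that of expressed members than to that of all silent genes.

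**Figure D1:**
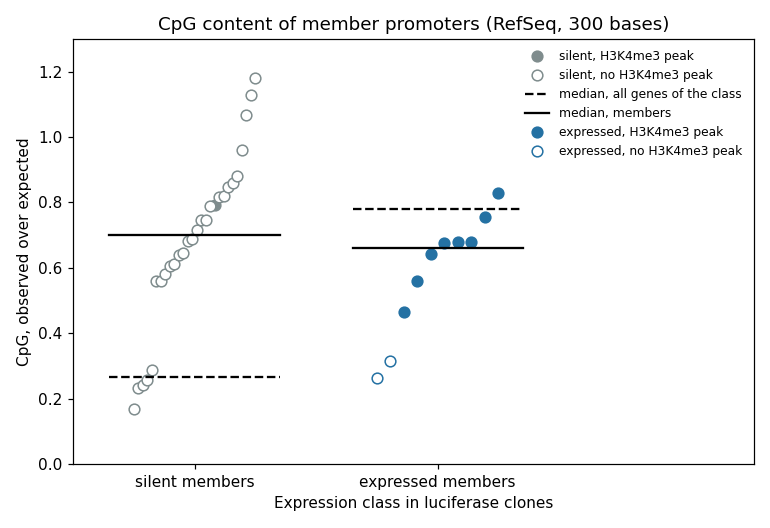
CpG observed over expected in the 300-base RefSeq promoters of silent (left, n = 28) and expressed (right, n = 10) members, 1 point per gene, filled where an H3K4me3 peak lay within 2 kb of either locus end. Solid lines are member medians and dashed lines the medians of all genes of the class: the silent members' median of 0.70 lies above the 0.27 of all silent genes, and the 1 filled silent point is Nkx2-2, whose peak lay at the 3′ end. Lhx5 and Tbx2, the other silent members with H3K4me3, have no entry and are not plotted.

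The TATA-box letters TATAAA, searched on both strands, were present in 2 of 28 silent member promoters (7.14%) and 2 of 10 expressed ones (20.0%), and in 20.7% of all silent and 8.11% of all expressed genes' promoters. The letters CCAAT, searched likewise and able to share 1 end base with the first motif, were present in 12 (42.9%) and 7 (70.0%), and in 39.8% and 44.1%. Over all 32851 RefSeq promoters, 13.6% held TATAAA and 37.4% held CCAAT.

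Sequencing came to an estimated 18.2 to 26.5 M fragments in the knockdown clones and 25.2 to 25.9 M in the luciferase clones. H3f3a had 71.8, 35.6 and 5.05 FPKM in knockdown clones 1 to 3, against 128 and 143 FPKM in luciferase clones, and H3f3b had 144, 104 and 51.7 against 249 and 237. Both genes were thus lower in every knockdown clone, least so in clone 1. Knockdown clone 1 also stood apart on the first principal component of all tested genes, which held 39.1% of the variance, at -72.6 against -0.59 to 40.1 for the other 4 clones. Fibroblast genes were by far the most abundant of the marker lists. The 13 markers of that type summed to 8202 to 9769 FPKM in knockdown and 6554 to 7379 FPKM in luciferase clones, although the matrix gene Lum was silent. Sums for other types were 13.3 to 20.1 and 14.0 to 16.9 FPKM (neural), 5.10 to 13.8 and 10.0 to 15.2 (endothelial), 3.00 to 4.47 and 3.24 to 3.58 (blood), 0.70 to 6.55 and 2.39 to 2.67 (epithelial) and 27.7 to 60.8 and 48.8 to 68.2 (muscle). Listed at 0 in all 5 clones were 1 of 10 neural (Olig2), 0 of 8 endothelial, 2 of 8 blood (Cd3e, Hbb-b1), 2 of 7 epithelial (Epcam, Cldn4) and 1 of 8 muscle markers (Myod1). The neural and muscle sums came mostly from 1 gene each, the synapsin gene Syn1 (12.4 to 18.4 FPKM in knockdown and 13.2 to 15.9 in luciferase clones) and the muscle actin gene Acta1 (23.8 to 43.3 and 38.6 to 53.8). Cdh5, the endothelial cadherin gene, had 0.17 to 0.50 FPKM in knockdown clones and 3.78 and 6.89 FPKM in luciferase clones, and Tek, an endothelial receptor gene, reached 10.5 FPKM in knockdown clone 1. The part of these genes' cell types in the results was not tested. In these bulk samples fewer cells expressing a gene and less RNA of it per cell cannot be told apart.

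No silent member reached 1 FPKM in any clone. The tables list 10 of them at 0 in all 5 clones, namely Lhx1, Lhx2, Nkx2-2, Nkx6-1, Pax7, Sox1, Sox2, Sox8, Sox17 and Gata6, and 30 of 36 stayed under 0.1 FPKM in every clone. Depth limits these values, since 31 of the 36 had fewer than 10 estimated fragments in every clone, and no test was made on them.

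A level of 0.1 FPKM or more in some clone was found for 6 silent members. Nkx2-1, a factor of thyroid, lung and ventral forebrain, had 0.20, 0.20 and 0.58 FPKM in knockdown clones, against 0.21 and 0.090 in luciferase clones. Pax8, of thyroid and kidney, had 0.061, 0.042 and 0.51 against 0.011 and 0.20. In both genes knockdown clone 3 was the highest and the groups overlapped. Sox5, a cofactor of Sox9 in cartilage, had 0.13, 0.12 and 0.077 FPKM in knockdown clones, against 0.13 and 0.36 in luciferase clones. Six2, of nephron progenitors, had 0.14, 0.13 and 0.095 against 0.082 and 0.078. Its groups did not overlap, but the values rest on an estimated 5.7, 9.6 and 4.0 fragments against 5.9 and 4.1. At levels under 0.1 FPKM, Pax1, Pax3, Gata5 and Lhx5 were likewise higher in every knockdown clone, and Gata1 and Sox6 were lower. The share of all silent genes with such a separation was not taken. Lhx8, of forebrain cholinergic neurons, had 0.14, 0.028 and 0.020 against 0 and 0.030, and Tbx2, of heart and limb, had 0.13, 0.015 and 0.042 against 0.0078 and 0.016. These last pairs of groups overlapped, with knockdown clone 1 the highest.

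Of the 14 members tested with limma on log2(FPKM + 1), none differed between knockdown and luciferase clones at a Benjamini-Hochberg adjusted p under 0.05, against 4 of 11728 genes tested (0.0341%). At an unadjusted p under 0.05 the counts were 0 members and 9.81% of all genes. The log2 difference, knockdown minus luciferase, was positive for 7 members and negative for 7, with a median of 0.00, against a median of -0.10 over all genes tested. Adjusted p-values of the members ran from 0.516 to 0.943. With these few clones a missed threshold does not show that levels were alike, and the standard errors of the log2 differences ran from 0.16 to 0.65.

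The expressed Sox genes had the highest mean FPKM of the members in both groups, although Tbx15 (35.7) was above Sox4 (33.4) in knockdown clone 2. Sox9, the regulator of chondrocyte fate, had 103, 69.5 and 67.9 FPKM in knockdown clones, against 64.8 and 61.0 in luciferase clones. Every knockdown value lay above both luciferase values (means 80.2 ± 19.9 and 62.9 ± 2.71 FPKM, SD, n = 3 and 2), but the log2 difference of 0.32 had an SE of 0.25 (limma adjusted p = 0.641). Sox4, a SoxC factor of progenitor cells in many tissues, had 128, 33.4 and 33.01 FPKM in knockdown clones, against 33.3 and 48.7 in luciferase clones. Only clone 1 was above the luciferase range, and the log2 difference of 0.36 (SE 0.65, adjusted p = 0.834) became -0.27 without that clone.

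Expressed T-box genes belonged to limb, trunk and heart mesenchyme. Tbx15, which shapes skeleton and dermis, had 35.7, 35.7 and 17.5 FPKM in knockdown clones, against 23.1 and 23.8 in luciferase clones. Tbx18, of somites and the heart's sinus node, had 16.0, 11.9 and 9.15 against 11.8 and 13.5. In both genes the luciferase values lay inside the knockdown range, and the log2 differences were 0.26 (SE 0.35) and -0.06 (SE 0.26). Tbx4, a hindlimb and lung factor, had 8.57, 6.08 and 2.86 FPKM in knockdown clones, against 6.57 and 7.80 in luciferase clones (log2 difference -0.35, SE 0.41). Tbx3, of limb and mammary gland, had 1.76, 2.69 and 3.67 against 3.33 and 3.78 (-0.33, SE 0.28). Again the groups overlapped, with knockdown clone 1 the highest for Tbx4 and the lowest for Tbx3.

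Gata4, a factor of heart and endoderm, had the smallest adjusted p of the members. It had 4.46, 4.64 and 6.67 FPKM in knockdown clones, against 8.93 and 7.11 in luciferase clones. The groups did not overlap, and the means were 5.26 ± 1.23 and 8.02 ± 1.29 FPKM (SD, n = 3 and 2), but the log2 difference of -0.54 (SE 0.23) did not pass the limma test (adjusted p = 0.516). Gata2, of blood progenitors, had 16.3, 9.13 and 5.23 FPKM in knockdown clones, against 12.6 and 9.57 in luciferase clones, and its groups overlapped (log2 difference -0.22, SE 0.45). Gata3, of T cells and mammary epithelium, had 0.55, 0.29 and 0.40 FPKM in knockdown clones, against 0.88 and 1.01 in luciferase clones. All 3 knockdown values were lower, but its mean was under the 1 FPKM needed for the test. Nkx2-5, of the embryonic heart, had 10.5, 7.94 and 10.4 FPKM in knockdown clones, against 12.0 and 8.34 in luciferase clones, with overlap (log2 difference -0.06, SE 0.23).

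Among the expressed homeobox and paired-box genes, Lhx6 and Six4 were higher in each knockdown clone than in both luciferase clones. Lhx6, of cortical interneurons, had 6.61, 6.60 and 6.30 FPKM in knockdown clones, against 5.72 and 5.98 in luciferase clones, so that the difference was small (log2 0.13, SE 0.16). Six4, of muscle precursors, had 10.2, 7.99 and 6.39 FPKM in knockdown clones, against 4.93 and 6.24 in luciferase clones (log2 0.47, SE 0.24, limma adjusted p = 0.543). Six5, whose human counterpart lies beside the myotonic dystrophy gene, had 9.25, 4.36 and 5.52 against 3.92 and 4.95 (log2 0.39, SE 0.32), with overlap. Its neighbour Dmpk averaged 14.8 FPKM in knockdown and 4.49 FPKM in luciferase clones, and the strand of counting is not given in the sources used here. Lhx9, of gonad and limb, had 3.57, 4.17 and 2.69 FPKM in knockdown clones, against 4.58 and 3.27 in luciferase clones. Pax9, of teeth and vertebrae, had 3.97, 3.17 and 4.26 against 2.57 and 4.91. Groups overlapped for these last genes (log2 differences -0.14 and 0.06).

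Counted over the 14 tested members, 3 had every knockdown value above both luciferase values (Lhx6, Six4 and Sox9), against 11.4% of all genes tested. One had every knockdown value below (Gata4), against 21.2%. Knockdown clone 1 was the highest of the 5 clones for 8 of the 14, and for 23.7% of all genes tested. Clones 2 and 3 were also above both luciferase clones for Lhx6, Six4 and Sox9, and not for Sox4.

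**Figure D2:**
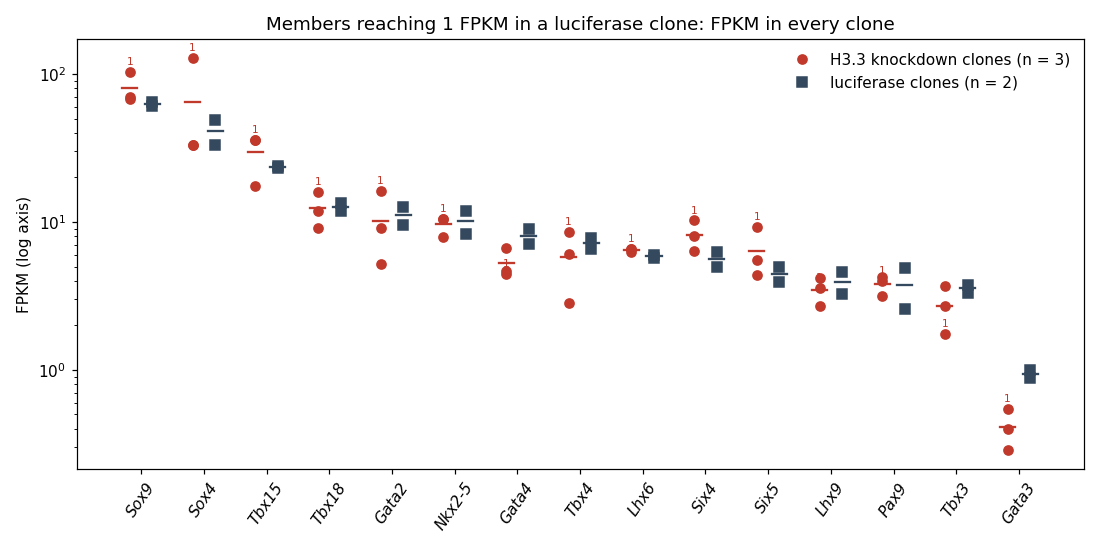
FPKM (log axis) of the 14 expressed members and Gata3 in each of the 3 H3.3 knockdown clones (circles, left of each gene, clone 1 marked 1) and the 2 luciferase clones (squares, right), with short lines at the means. Groups are clear of each other for Sox9, Lhx6 and Six4 (knockdown higher) and for Gata4 and Gata3 (knockdown lower).

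Silent members carried few peaks and most expressed members carried several. A peak was counted where it overlapped, by 1 base or more, the 2 kb on either side of either locus end in mm9. In 27 of the 36 silent members (75.0%) no library had such a peak, against 66.2% of all silent genes, and the same held for 1 expressed member, Lhx9, against 3.75% of all expressed genes. The silent members' share was thus near that of all silent genes. H3K4me3 lay at 3 of 36 silent members (8.33%, exact 95% binomial interval 1.75% to 22.5%), against 18.3% of all silent genes, and at 12 of 14 expressed members (85.7%, 57.2% to 98.2%), against 93.7% of all expressed genes. H3K9ac lay at 1 silent member and 12 expressed members (all genes 8.58% and 88.8%), and H3K27ac at 1 and 8 (8.73% and 67.1%). HA-H3.3, in either replicate, lay at 7 silent members (19.4%) and 12 expressed members (85.7%), against 23.4% and 85.8% of all genes. Intervals cover the number of genes only, as each antibody had 1 library apart from HA-H3.3.

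RBBP4 in unmodified cells followed the same division. It had a peak at 4 of 36 silent members (11.1%, exact interval 3.11% to 26.1%), against 12.9% of all silent genes, and at 11 of 14 expressed members (78.6%, 49.2% to 95.3%), against 81.2% of all expressed genes. Both member shares were near those of all genes. HDAC2 lay at 3 silent and 8 expressed members (all genes 6.42% and 53.2%), HDAC1 at 1 and 4 (3.12% and 32.4%), and CHD4 at 1 and 2 (1.29% and 11.6%). MTA1 lay at 0 silent members and at 3 expressed ones, Six4, Tbx18 and Sox4 (1.73% and 13.5%), and MBD2/3 at none of either class (1.54% and 14.2%), where the exact interval for 0 of 14 reaches 23.2%. The counts of HDAC2, HDAC1, CHD4 and MTA1 depended on the cover required. Where a peak had to cover at least 0.5 of a region, HDAC2 lay at 1 silent and 1 expressed member (all genes 1.43% and 11.3%), HDAC1 at 0 and 0 (0.511% and 2.35%), CHD4 at 1 and 0 (0.247% and 0.776%) and MTA1 at 0 and 1 (0.362% and 0.974%). The CHD4 and MTA1 calls that remained were regions of 134 bp at Tbx1 and 161 bp at Tbx18, with 8 and 9 reads. RBBP4 then lay at 3 silent and 10 expressed members, but its share over all genes was not taken by this rule. None of the 6 sequential ChIP peaks lay at a member, silent or expressed, against 0% of all silent and 0.0722% of all expressed genes.

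**Figure D3:**
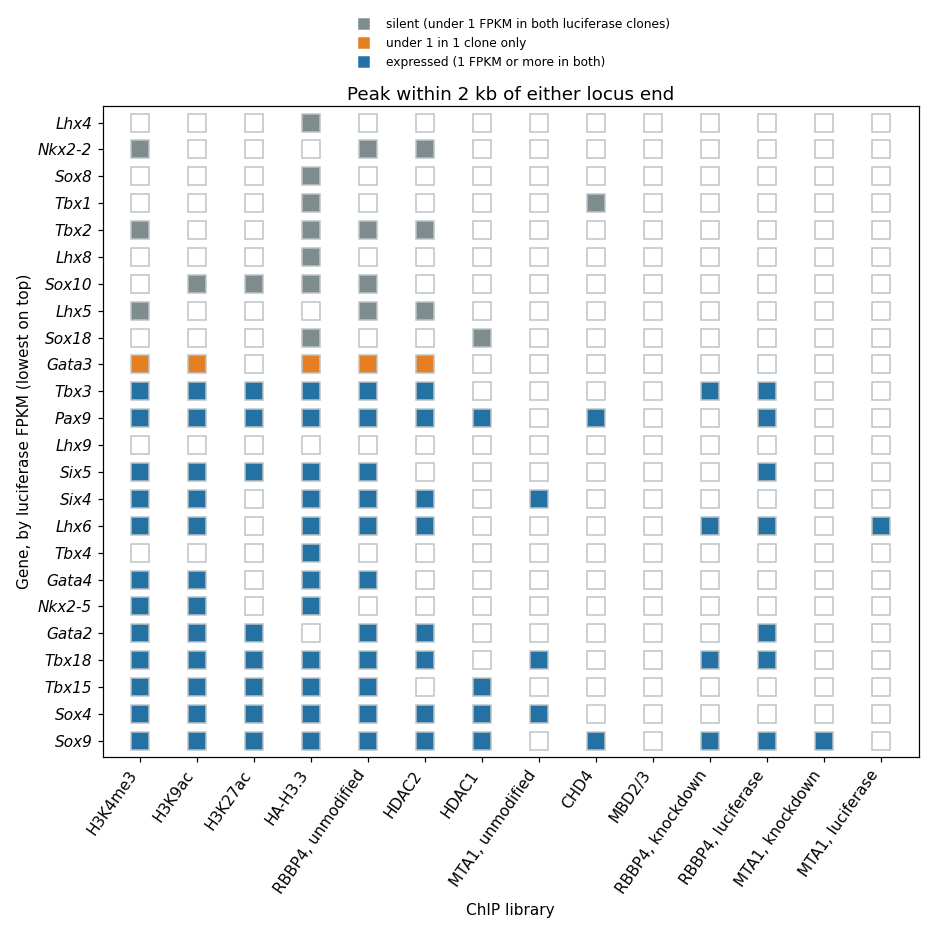
Filled squares mark a peak within 2 kb of either locus end, for each ChIP library (columns) at the 23 members with any peak and at Lhx9 (rows, silent on top, then Gata3, then expressed, by rising luciferase FPKM). Expressed members fill most of the columns from H3K4me3 to RBBP4, silent members fill at most 4 squares each, and the last 4 columns are empty above Tbx3.

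Among silent members, 9 had at least 1 peak, all in the libraries of unmodified cells and of HA-H3.3, and they carried different combinations. Nkx2-2 had H3K4me3 (chr2:147003355-147004950, score 1222), HDAC2 and RBBP4, while its RNA and that of its neighbours 6430503K07Rik and Nkx2-2os were listed at 0. That peak lay by the low end of the locus, which is its 3′ end by the RefSeq strand, and not at the promoter printed above. Tbx2, with 0.0078 and 0.016 FPKM in luciferase clones, had H3K4me3 outside the high end of its locus (chr11:85656351-85658703, score 2961) with HDAC2, RBBP4 and H3.3, beside the locus of 2610027K06Rik, which averaged 0.57 FPKM in knockdown and 0.39 FPKM in luciferase clones. Lhx5, of the forebrain and hypothalamus, had H3K4me3 of low score by the high end of its locus (chr5:120890265-120891132, score 115) with HDAC2 and RBBP4. The RBBP4 peaks there were at regions of 305 and 330 bp with 11 reads each. All 3 silent members with H3K4me3 in the window thus also had RBBP4 and some HDAC2, and none had an acetylation peak. The share of all silent genes with H3K4me3 that had this combination was not taken, so it describes these 3 genes only. Without a RefSeq entry, the strand of Lhx5 and Tbx2 was not read. The HDAC2 peaks covered 0.27 of the region at Nkx2-2, 0.49 at Lhx5 and 0.37 of the Tbx2 region under H3K4me3. Where a cover of at least 0.5 was required, Tbx2 alone of the 3 kept HDAC2. It did so through a separate region of 197 bp with 8 reads, outside the H3K4me3 peak.

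Sox10, of neural crest and glia, was the silent member with acetylation, with H3K9ac (score 64.3) and H3K27ac (score 51.8). These scores ranked above 11.7% and 8.33% of their own lists. Sox10 also had RBBP4 and, in replicate 2 alone, H3.3, but no H3K4me3 in the window. Its peaks lay apart, with H3K9ac at the low end of the locus (chr15:78985323-78986378) and H3K27ac outside the high end (chr15:78995824-78996013). RBBP4 and H3.3 shared a region inside the high end (chr15:78992298-78992977). Tbx1, a factor of the pharyngeal arches, had CHD4 at a region of 134 bp with 8 reads. At the other end of its locus it had H3.3, in replicate 2 alone. Sox18, of endothelium, had H3.3 and an HDAC1 peak that covered 0.058 of its region. Lhx4 and Lhx8, of motor and forebrain neurons, and Sox8, of neural crest, had H3.3 and no other peak, at Sox8 in replicate 2 only. Counted in both HA-H3.3 replicates rather than either, H3.3 lay at 4 silent members, and the share over all genes was not taken by this rule. Gata3 resembled the expressed members, with H3K4me3 (score 3100, which was also the score at most expressed members), H3K9ac, HDAC2, RBBP4 and H3.3.

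Signal levels were read at regions of the deposited table, which lists only regions with an H3.3 or subunit peak in some library and holds 6.62 to 24.1 M reads per library. A region lay in the window of 9 silent and 13 expressed members, against 3189 of 12138 silent and 10295 of 11084 expressed genes. The median over members of the highest H3K4me3 level, on the log2(RPKM + 1) scale (reads per kilobase, scaled to library size), was 0.81 at silent and 4.23 at expressed members, against 1.03 and 4.17 over all genes. For RBBP4 the medians were 2.04 and 2.42 (all genes 1.69 and 2.27). HA-H3.3 had medians of 2.09 and 2.47 in replicate 1 and 2.00 and 2.57 in replicate 2. Since a region is listed only for an H3.3 or subunit peak, the RBBP4 and H3.3 levels of silent members are those of members selected for such a peak, and they cannot be set against the H3K4me3 levels. For H3K4me3, Nkx2-2 (3.20) was closer to Sox9 (3.74) than to Sox8 (0.43). For H3K9ac it was closer to Sox8 (0.734, against 0.738 at Sox8 and 1.878 at Sox9), and likewise for H3K27ac. The RBBP4 levels were 2.37 at Nkx2-2, 2.37 at Sox9 and 1.63 at Sox8. They do not place Nkx2-2, because its region had an RBBP4 peak and that of Sox8 had H3.3 only.

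CpG content could be set beside the peaks for members with a promoter entry. Of 20 silent members with a CpG ratio of 0.6 or more, 1 had H3K4me3 (5.0%), against 519 of 1632 silent genes with such promoters (31.8%). RBBP4 in unmodified cells lay at 1 of the 20, against 24.0%, and H3.3 at 3 (15.0%), against 34.2%. The 1 gene with H3K4me3 and RBBP4 was Nkx2-2, with its peak at the 3′ end. These counts depend on which genes had an entry: the 8 silent members without one held the other 2 with H3K4me3 (Lhx5 and Tbx2), 3 with RBBP4 (those and Sox10) and 3 with H3.3. All 6 expressed members with such promoters had both H3K4me3 and RBBP4, against 98.1% and 87.1% of expressed genes of that kind.

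**Figure D4:**
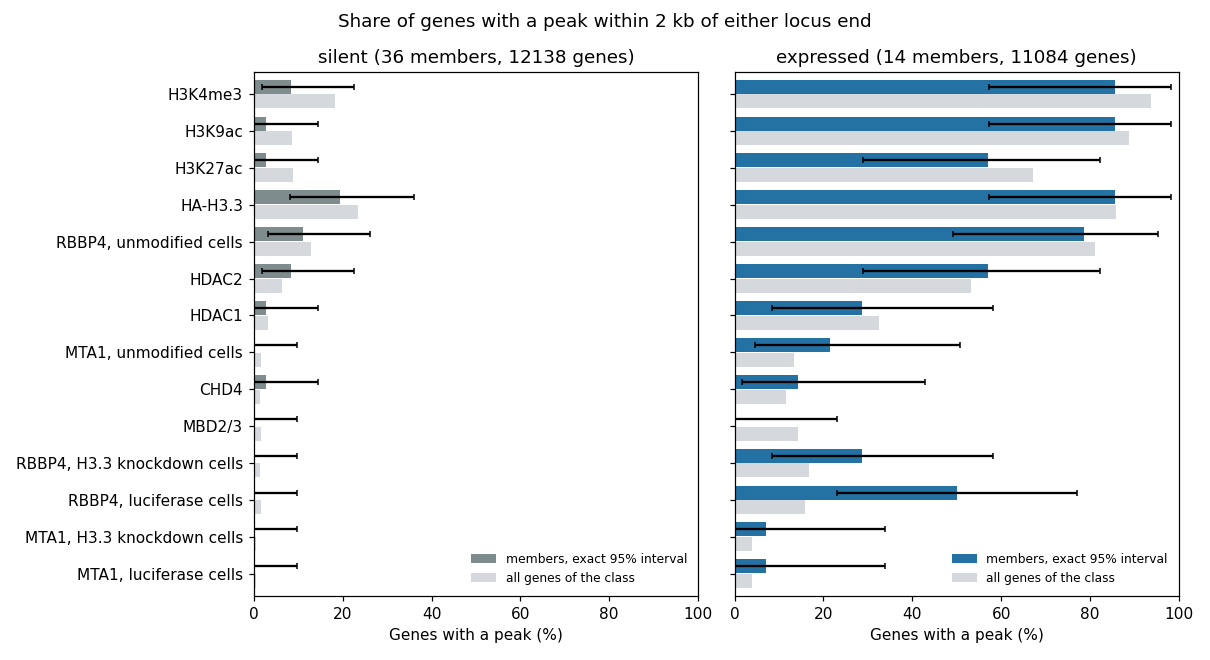
Share of genes with a peak within 2 kb of either locus end, for silent genes (left, 36 members of 12138 genes) and expressed genes (right, 14 members of 11084 genes). Coloured bars are members with exact 95% binomial intervals and light bars all genes of the class: RBBP4 in luciferase cells is at 50.0% of expressed members and 15.8% of expressed genes. No silent member has a peak in any of the 4 knockdown and luciferase libraries, where all silent genes have 0.47% to 1.65%.

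In knockdown and luciferase cells, RBBP4 peaks within the windows were called at expressed members and at no silent one. RBBP4 had a peak at 0 of 36 silent members in knockdown cells and 0 in luciferase cells, with an exact interval reaching 9.74% for each, against 1.29% and 1.65% of all silent genes. The silent members' shares were thus near those of all silent genes. At expressed members it had a peak at 4 of 14 in knockdown cells (28.6%, exact interval 8.39% to 58.1%) and at 7 of 14 in luciferase cells (50.0%, 23.0% to 77.0%), against 16.7% and 15.8% of all expressed genes. The 7 genes with a luciferase peak were Lhx6, Sox9, Tbx18, Tbx3, Gata2, Pax9 and Six5, and the first 4 also had a knockdown peak. With 1 library per condition there is no replicate check on a peak present in 1 list and missing from the other, and the depth of these libraries is unknown.

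At Lhx6 RBBP4 had 1 peak in knockdown cells (chr2:35960050-35960227, score 82.6, the authors' value in this list) and 1 in luciferase cells (chr2:35960066-35960645, score 331), overlapping in the first part of the gene. At Sox9 the knockdown peak (chr11:112644026-112644336, score 109) overlapped the luciferase peak (chr11:112643926-112644159, score 55.8). Tbx18 had 2 peaks in knockdown cells, of which the stronger (chr9:87624655-87625208, score 277) ranked above 94.8% of its list, and 3 in luciferase cells with scores of 119, 67.7 and 80.3. Every one of these Tbx18 peaks overlapped a peak of the other condition. Tbx3 had 2 knockdown peaks with scores of 58.8 and 63.2 and 3 luciferase peaks with scores of 170, 63.7 and 136, and 1 pair overlapped, just outside the low end of the locus.

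The other 3 genes had RBBP4 peaks in the luciferase list alone. At Gata2 it was a single peak (chr6:88149375-88149843, score 236) that ranked above 89.4% of its list. Six5 likewise had 1 (chr7:19680340-19680737, score 124), and Pax9 had 2 of low score (56.6 and 60.1). RNA of Gata2, Six5 and Pax9 overlapped between the groups, as given above. Over the members, 5 of 6 knockdown peaks and 6 of 12 luciferase peaks were overlapped by the other list, against 47.2% of all 2919 knockdown and 33.9% of all 3561 luciferase peaks.

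All 6 knockdown and all 12 luciferase RBBP4 peaks at members lay on H3K4me3 and on H3K9ac peaks of unmodified cells. Over the whole lists 84.5% of knockdown and 73.7% of luciferase RBBP4 peaks lay on H3K4me3, and 77.5% and 64.8% lay on H3K9ac. H3K27ac was under 3 of 6 and 7 of 12 (whole lists 36.9% and 31.1%), and HA-H3.3 peak regions under 6 of 6 and 10 of 12 (71.8% and 61.0%). These sets are unlike, since the member peaks all lay near locus ends of expressed genes, where H3K4me3 is usual (93.7% of expressed genes). The whole lists also hold peaks elsewhere and at silent genes. That limit applies to the overlaps between lists given above as well. Where RefSeq gives the strand, which it did for 5 of the 7 genes (Gata2, Lhx6, Six5, Tbx18 and Pax9), the luciferase peaks lay at the 5′ end. Their middles were 573 to 1553 bp inside the gene.

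**Figure D5:**
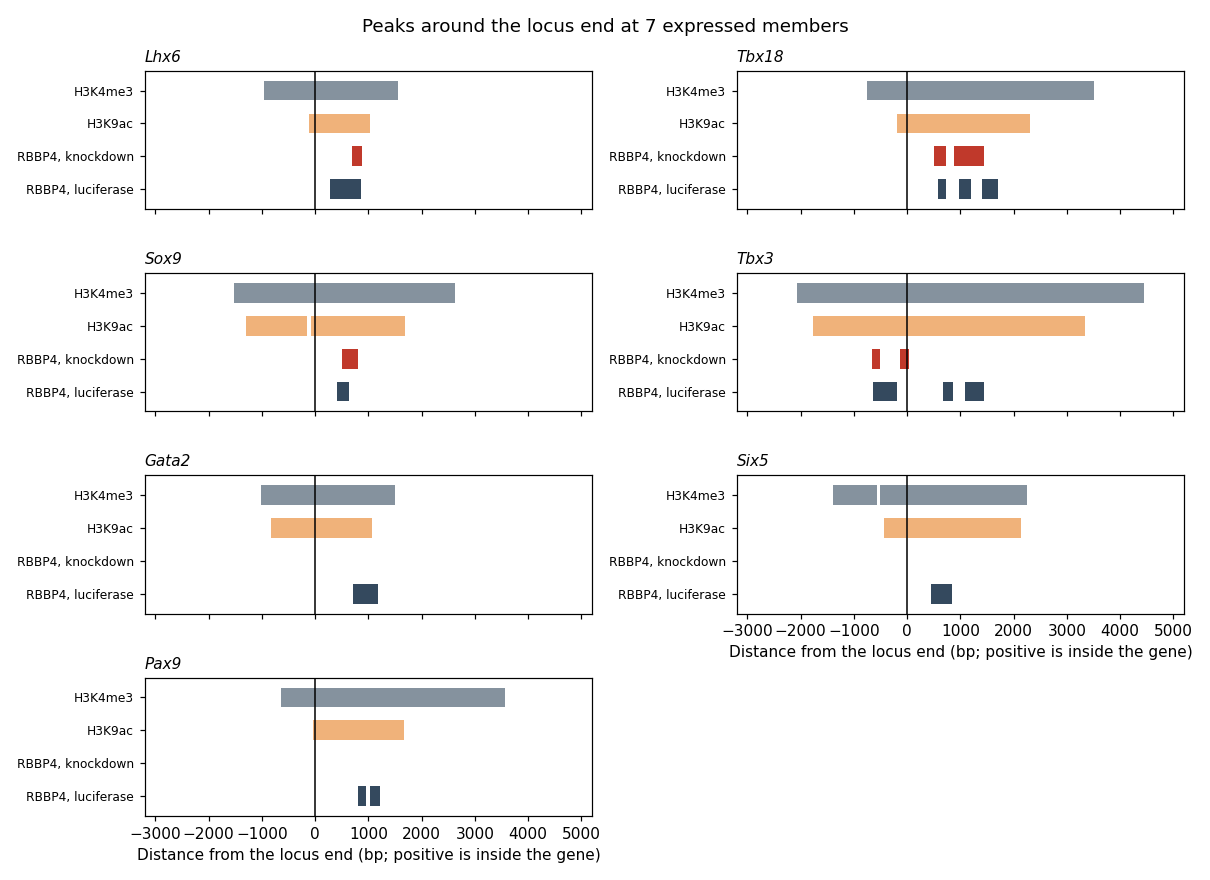
Peaks of H3K4me3 and H3K9ac in unmodified cells and of RBBP4 in knockdown and luciferase cells (rows, from top to bottom) around the locus end (line at 0; distance in bp, positive inside the gene) at the 7 expressed members with RBBP4 luciferase peaks. The RBBP4 bars overlap the H3K4me3 and H3K9ac bars at all 7 genes, and Gata2, Six5 and Pax9 have no knockdown bar.

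MTA1, the other subunit followed in both conditions, was called at 1 expressed member in each, Sox9 in knockdown cells (score 50.1, among the lowest of its list) and Lhx6 in luciferase cells (score 84.9). The shares of all expressed genes were 4.01% and 3.82%. Neither peak was overlapped by the other list, in which 21.0% of knockdown and 16.1% of luciferase peaks were. No silent member had MTA1, against 0.544% and 0.47% of all silent genes.

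The windows at the locus ends missed peaks inside some genes. Lhx9 and Tbx4, both expressed, were without H3K4me3 there but had a strong peak within the locus, at chr1:140737089-140741206 (score 3100, middle 5009 bp from the high end) and at chr11:85709432-85711807 (score 2725, 7055 bp from the low end). Lhx9 also had RBBP4 inside the locus in knockdown cells (score 53.4) and in luciferase cells (score 61.6). Taken over the whole locus with 2 kb on each side, H3K4me3 lay at 10 silent members (27.8%, against 30.1% of all silent genes) and H3.3 at 11 (30.6%, against 32.3%). RBBP4 of luciferase cells then lay at 1, the long gene Sox5 (2.78%, against 3.43%). By this rule the members' shares were close to those of all silent genes.

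Other genes of the 7 families and the regulators of the fibroblast's own lineage gave a frame for these values. Of 31 further family genes 26 were silent and 3 expressed, and none of those 3 passed the limma test (median log2 difference 0.17). Sox12, a SoxC factor and the most abundant of the 3 in luciferase clones, had 21.1, 17.2 and 15.3 FPKM in knockdown clones, against 15.7 and 16.7 FPKM in luciferase clones, and its groups overlapped. Of 30 mesenchymal transcription factors 24 were expressed, 25 were tested and none passed (16 positive, 9 negative, median 0.19). Twist2, a repressor of mesenchymal differentiation, had the smallest p of these, with 32.3, 39.8 and 26.1 FPKM in knockdown clones, against 66.0 and 77.9 in luciferase clones (log2 difference -1.13, SE 0.24, adjusted p = 0.417). RBBP4 had a peak at 5 of these 24 expressed genes in knockdown cells (20.8%) and at 10 (41.7%) in luciferase cells. The shares of all expressed genes were 16.7% and 15.8%. A luciferase share above that of all expressed genes was thus not particular to the members, which had 50.0%. All 11 PRC2 subunit genes were expressed and none passed (median -0.15), and Rbbp4 itself had 55.9, 61.2 and 65.7 FPKM in knockdown clones, against 81.1 and 65.9 in luciferase clones (log2 difference -0.26, SE 0.20).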

How the data were processed

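Members and gene lists were chosen with earlier results of these data known. Per the submitters' processing notes, Bowtie, TopHat, Cufflinks, Cuffdiff, MACS2 and bedtools were used with mm9. Deposited FPKM values were summed per symbol; limma 3.58.1 (R 4.3.3, eBayes with trend, two-sided) tested log2(FPKM + 1) over 11728 genes with a mean of 1 FPKM or more, with Benjamini-Hochberg adjustment, and was tested on simulated data. Nothing in the labels says that clones came from separate cultures, so p-values measure the spread between these clones. Peak scores are the authors' and have the form of a MACS score, a multiple of −log10 p. Levels are deposited by the authors as log2(RPKM + 1), with 1 region table holding the fraction of each region under peaks, where a fraction above 0 counted as a peak. The fold (ratio) of the sequential ChIP peaks, per the file headers from MACS 2.1.1.20160309, was not needed. Fragments were estimated from FPKM confidence bounds. Shares of genes carry exact Clopper-Pearson intervals (SciPy 1.17.1). Input libraries were not used here. Values are given for all expressed members and all members with RBBP4 or MTA1 peaks in knockdown or luciferase cells. No silent member had an RBBP4 luciferase peak from which to choose promoters, so Nkx2-2 and Sox2 were chosen after values were seen. Sox4 and Tbx18 are the expressed members of highest FPKM with an entry. A gene of the further family list is not reported here.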

Additional observations from a re-analysis of the deposited data

How the results depend on the processing

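No member passed the limma test under any of the settings tried, which changed the pseudocount, the filter, the normalization, the moderation and the entry per symbol, blocked on clone number, or left out a clone. Over all genes 4 passed, against 0 with the replicate block and 8 to 30 with 1 clone left out. Whether the clone numbers pair the clones could not be decided. The correlation of deviations from the group means was -0.25 for number 1 and -0.10 for number 2. With 2 luciferase clones these deviations mirror each other, so the values cannot show that pairing is absent. Under the block, where knockdown clone 3 has a number of its own, the log2 difference turned to -0.014 for Pax9, 0.14 for Gata2, 0.013 for Tbx4 and 0.12 for Tbx18. Those were also the values without knockdown clone 3. With 1 clone left out, members that changed sign ran from -0.31 to 0.42 (Pax9), -0.59 to 0.14 (Gata2), -0.33 to 0.054 (Lhx9), -0.30 to 0.18 (Nkx2-5), -0.64 to 0.013 (Tbx4), -0.25 to 0.12 (Tbx18) and -0.27 to 0.69 (Sox4). Quantile normalization, which moved the median of all genes from -0.10 to -0.01, gave 0.066 for Nkx2-5 and 0.068 for Tbx18. The cause of these changes was not tested.

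RBBP4 in luciferase cells lay at 1 silent member with 5 kb windows or the whole locus. With a class threshold of 5 FPKM, which makes 41 members silent and 9 expressed, it lay at 3 silent and 4 expressed members, and RBBP4 of unmodified cells at 8 and 7. Among members whose windows hold no end of another gene's locus, an alternative chosen after seeing the data that leaves 25 silent and 11 expressed, RBBP4 lay at 4 expressed members in luciferase cells and at 1 silent member in unmodified cells. Members with overlapping knockdown and luciferase RBBP4 peaks numbered 4, and 2 among the peaks above their list's median score or with 50% of the luciferase peak overlapped. Apart from the whole locus, shares over all genes were not taken for these settings, so the counts describe the members only.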
